A study of Mus musculus with 6 samples.

Results

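In order to examine blood clotting genes in macrophages that lack integrin α5, 8 genes of coagulation and of its natural inhibitors were compared between macrophage libraries of ITGA5 fl/fl and Myα5KO infarcts. The genes were F3, F7, F10, F5, F13a1, Tfpi, Thbd and Procr, taken by their symbols from the deposited count table, which lists 54532 genes. All 8 had enough reads to be tested. Cells came from hearts of 12-week-old C57BL/6 mice 7 days after permanent coronary occlusion, and were depleted of Ly6G+ cells and then enriched for CD11b+ cells. ITGA5 fl/fl mice carried the floxed Itga5 allele without Cre (3 libraries), and Myα5KO mice carried the same allele with LyzM-Cre (ITGA5 fl/fl + LyzM-Cre, 3 libraries). LyzM-Cre acts in cells that use the lysozyme M promoter, which include macrophages, monocytes and neutrophils. Every library came from an infarcted heart and only the Myα5KO mice carried Cre, so effects of Cre itself and of Itga5 loss cannot be told apart here. Hearts were digested one mouse at a time, and whether cells of several mice were joined in a library is not stated, so p-values measure the spread between these libraries.

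Coagulation starts when tissue factor (F3) on a cell surface binds factor VII (F7) and the complex activates factor X (F10). Factor Xa with its cofactor factor V (F5) converts prothrombin to thrombin, thrombin makes fibrin, and factor XIII, whose catalytic A chain is F13a1, cross-links it. Tissue factor pathway inhibitor (Tfpi) blocks the starting complex, whereas thrombomodulin (Thbd) and the endothelial protein C receptor (Procr) turn thrombin toward activation of protein C, which inactivates factor V. Monocytes and macrophages are known to express tissue factor and to carry the factor XIII A chain.

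Of the 8 genes, 3 fell in Myα5KO macrophages and 0 rose in the edgeR test at an adjusted p of 0.05 or less (5 lower and 0 higher at an unadjusted p under 0.05). Over all 14522 genes tested, 1661 were lower and 1692 higher at an unadjusted p under 0.05 by edgeR. At the adjusted p, 5.19% of these 14522 genes were called lower and 3.56% higher (8.75% in either direction). These were 754 and 517 genes, and with library totals as the only scaling 518 were lower and 1212 higher, whereas 3 of the 8 genes were again called lower and 0 higher. The genes that fell were Procr, to 44.7% of the control mean, F5, to 42.1%, and F3, to 38%. F13a1, Thbd and Tfpi were at 96.3%, 97.3% and 112% of their control means and were not called. F7 and F10 had lower means in Myα5KO macrophages without passing the test. Values are given as CPM, the counts of a gene relative to the size of its library after TMM scaling. Fold changes are log2 values of Myα5KO against ITGA5 fl/fl, given with the standard error (SE) of the fit.

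**Figure D1:**
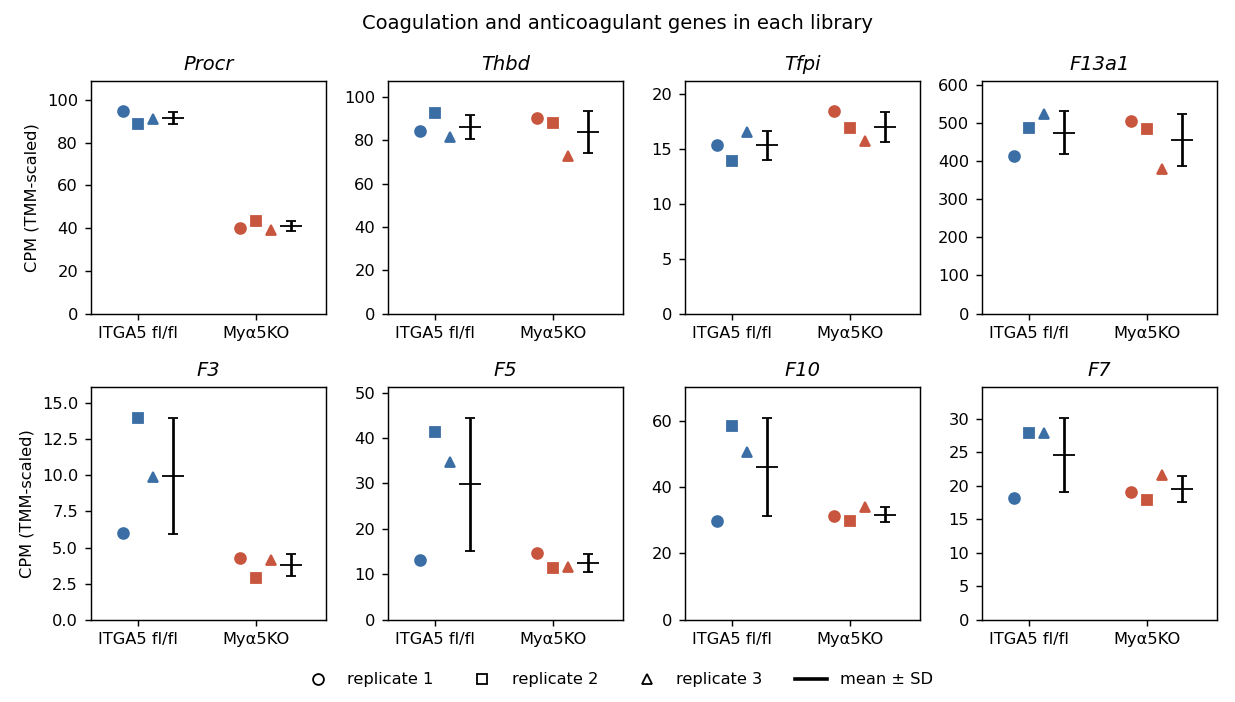
Level of each of the 8 genes (CPM, axes from 0) in the 3 ITGA5 fl/fl (blue) and 3 Myα5KO (red) libraries, with symbols for the replicate number and bars for the mean ± SD. Procr separates cleanly (89 to 94.7 against 39.3 to 43.5 CPM), whereas in F3, F5, F10 and F7 ITGA5 fl/fl replicate 1 lies well under the other controls.

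Libraries held between 15424451 and 18419287 counts. As a check of the labels, Itga5 was at 568 to 653 CPM in ITGA5 fl/fl and 47.1 to 50 CPM in Myα5KO libraries (log2 fold change -3.64, SE 0.079, edgeR adjusted p 4.42e-12). Macrophage markers were abundant in all 6 libraries (Csf1r and Adgre1 at 1210 CPM or more). Of the 8 genes in that list, Fcgr1 was higher, Lyz2, the gene into which LyzM-Cre is inserted, was lower, and the others were not called. The list summed to 14600 to 15300 CPM in ITGA5 fl/fl and 11200 to 11500 CPM in Myα5KO libraries. Lyz2 alone had 7070 to 7630 CPM in ITGA5 fl/fl and 3590 to 4070 CPM in Myα5KO libraries, so the sums mainly follow Lyz2. Ly6g, the neutrophil antigen used for depletion, stayed at 0 to 0.107 CPM. Marker lists of other cells are given below, because several of these genes are also expressed in endothelium, fibroblasts, cardiomyocytes or platelets. In such bulk samples fewer cells of a type and less RNA per cell cannot be told apart.

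The protein C receptors were examined together, since Thbd and Procr act on the same surface. Procr (ENSMUSG00000027611, GRCm38 chromosome 2, 155751117 to 155755471, plus strand, 4 exons) had 94.7, 89 and 91.1 CPM in ITGA5 fl/fl and 39.9, 43.5 and 39.3 CPM in Myα5KO libraries. The groups were far apart and each was narrow, with a coefficient of variation of 3.16% in ITGA5 fl/fl and 5.54% in Myα5KO, the smallest of the 8 genes in both groups. The edgeR log2 fold change of Procr was -1.16, with an SE of 0.068 and an adjusted p of 7.24e-07, which placed it at rank 3 of 14522 genes by p-value, where Itga5 was at rank 1. Procr was called in all 16 alternative analyses, with log2 fold changes from -1.21 to -1.08.

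Thbd (ENSMUSG00000074743, chromosome 2, 148404466 to 148408188, minus strand, a single-exon gene) had 84.5, 92.5 and 81.6 CPM in ITGA5 fl/fl and 90.6, 88.1 and 72.9 CPM in Myα5KO libraries. The groups overlapped. The log2 fold change of Thbd was -0.039 (95% interval -0.22 to 0.14, edgeR adjusted p 0.827), an interval that leaves out a change as large as that of Procr. The ratio of Procr to Thbd, which does not depend on how libraries are scaled, was 2.06, 1.76 and 2.05 in ITGA5 fl/fl libraries and stood at 0.807, 0.905 and 0.989 in Myα5KO libraries, on the per-length FPKM scale. Procr was thus the more abundant of the pair per length in each control library and the less abundant in each Myα5KO library. No test was run on this ratio.

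Procr, Thbd and Tfpi are known endothelial genes. The 10 endothelial markers summed to 380 to 419 CPM in ITGA5 fl/fl and 397 to 461 CPM in Myα5KO libraries, and these ranges overlapped. In that list 1 gene was higher and 1 lower by edgeR (3 higher and 1 lower at an unadjusted p under 0.05), and 3 genes were higher and 1 lower without overlap of the groups. Cdh5 and Pecam1, the most abundant of the list, had log2 fold changes of -0.026 and 0.17 and were not called (edgeR adjusted p 0.875 and 0.142). Fibroblast markers, of which 1 of 10 was called lower and 0 higher by edgeR (6 lower and 0 higher at an unadjusted p under 0.05), summed to 1650 to 1930 CPM in ITGA5 fl/fl and 1240 to 1600 CPM in Myα5KO libraries. Their part in the Procr result was not tested.

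The genes with expression most like Procr over the 6 libraries were Jdp2, which encodes a bZIP partner of Jun proteins, and Gfpt2, an enzyme of the hexosamine pathway. Likeness was measured as the root mean square difference of log2 CPM after centring each gene on its mean, over 9361 genes with at least 100 counts per library on average. It was 0.057 for Jdp2 and 0.088 for Gfpt2. Jdp2 had 518, 526 and 537 CPM in ITGA5 fl/fl and 244, 269 and 231 CPM in Myα5KO libraries. Among the 8 genes themselves, the smallest such difference for Procr was 0.451, with F3.

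Next, the genes that start coagulation were examined. F3 (ENSMUSG00000028128, chromosome 3, 121723537 to 121735048, plus strand, 6 exons) had 6.03, 14 and 9.85 CPM in ITGA5 fl/fl and 4.31, 2.89 and 4.15 CPM in Myα5KO libraries, from 54 to 239 counts per library. All Myα5KO libraries lay under all controls, but the controls spread more than 2-fold. This gave F3 a log2 fold change of -1.40 (95% interval -1.95 to -0.85, SE 0.26, edgeR adjusted p 0.00488). It was called in each of the 6 analyses that left out a library (-1.66 to -1.08). On the FPKM scale it was not called: with a pseudocount of 1 the log2 fold change was -0.94 (limma adjusted p 0.0696), and its alternatives, leaving out the fit without a count filter (1.69e-15), gave adjusted p from 8.43e-06 to 0.198. Across the 8 genes, 2 had groups that did not overlap, Procr and F3, both lower, against 13.8% of all tested genes that were lower without overlap and 28.6% without overlap in either direction.

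F7 (ENSMUSG00000031443, chromosome 8, 13026034 to 13035809, plus strand, 8 exons) encodes the protease that tissue factor binds. It had 18.2, 27.8 and 27.8 CPM in ITGA5 fl/fl and 19.1, 17.9 and 21.6 CPM in Myα5KO libraries. Replicate 1 of ITGA5 fl/fl lay within the Myα5KO range. F7 had a log2 fold change of -0.34 (95% interval -0.64 to -0.032, edgeR adjusted p 0.169), and it was not called.

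Tfpi (ENSMUSG00000027082, chromosome 2, 84432855 to 84476775, minus strand), which inhibits the complex of F3 and F7, had 15.3, 13.9 and 16.5 CPM in ITGA5 fl/fl and 18.4, 16.9 and 15.7 CPM in Myα5KO libraries. The groups overlapped, with a log2 fold change of 0.16 (95% interval -0.069 to 0.38, edgeR adjusted p 0.402). The annotation lists 10 transcripts of Tfpi, and counts per gene do not separate its membrane-bound and secreted forms. The per-length ratio of F3 to Tfpi was 0.85, 2.18 and 1.29 in ITGA5 fl/fl libraries, compared with 0.506, 0.369 and 0.571 in Myα5KO libraries. F3 exceeded Tfpi in 2 of the 3 control libraries and in 0 of the 3 Myα5KO libraries.

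F3 is also known to be abundant in cardiomyocytes and in fibroblasts. Cardiomyocyte markers summed to 20.9 to 23.6 CPM in ITGA5 fl/fl and 14.1 to 18.4 CPM in Myα5KO libraries. By edgeR 2 of 8 were called lower (Actc1 and Tnnt2) and 0 higher (3 lower and 0 higher at an unadjusted p under 0.05). None of the 8 was at 0 in all libraries. These ranges were separate and had the direction of F3, as did those of the fibroblast list. Gene by gene, 2 of the 8 cardiomyocyte markers and 5 of the 10 fibroblast markers were lower without overlap of the groups, and 0 were higher. Over all tested genes, 13.8% were lower without overlap. The remaining markers of both lists overlapped, and the cardiomyocyte markers Pln and Mb were at 120% and 106% of their control means. In ITGA5 fl/fl replicates 1, 2 and 3 the cardiomyocyte markers summed to 21.4, 23.6 and 20.9 CPM. The fibroblast markers summed to 1930, 1650 and 1730 CPM in the same order. The part of these cells in the F3 result was not tested.

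The reference sequence around the start sites of Procr, F3 and F5 was read from the RefSeq promoter table (GRCm38.p6, 250 bases before to 50 after the start). These 3 promoters are shown because they belong to the genes that passed the test. Capitals mark the AP-1 motif TGAGTCA, or TGACTCA on the opposite strand. They lie at chr2:155750967-155751266 (Procr), chr3:121723287-121723586 (F3) and chr1:164151585-164151884 (F5), all on the plus strand, and the F5 window holds no such match.
Procr: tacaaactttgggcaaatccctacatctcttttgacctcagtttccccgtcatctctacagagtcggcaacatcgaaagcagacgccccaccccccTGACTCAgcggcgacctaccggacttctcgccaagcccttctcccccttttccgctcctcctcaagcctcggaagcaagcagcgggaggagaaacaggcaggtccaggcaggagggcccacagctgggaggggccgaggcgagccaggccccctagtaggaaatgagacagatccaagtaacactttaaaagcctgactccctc
F3: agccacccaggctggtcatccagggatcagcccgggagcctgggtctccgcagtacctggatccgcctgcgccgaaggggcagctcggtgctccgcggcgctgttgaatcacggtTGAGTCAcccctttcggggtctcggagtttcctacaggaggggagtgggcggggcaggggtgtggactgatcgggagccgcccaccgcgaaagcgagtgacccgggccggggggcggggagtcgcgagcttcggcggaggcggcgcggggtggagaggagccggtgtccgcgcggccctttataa
F5: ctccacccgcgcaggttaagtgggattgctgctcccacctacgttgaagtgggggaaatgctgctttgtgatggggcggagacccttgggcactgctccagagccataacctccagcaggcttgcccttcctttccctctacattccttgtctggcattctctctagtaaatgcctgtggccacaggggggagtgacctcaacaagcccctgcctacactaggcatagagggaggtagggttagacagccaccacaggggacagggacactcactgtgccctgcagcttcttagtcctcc
An entry was found for 7 of the 8 genes, with 9 promoters in all, and Thbd had none. Procr and F3 each held 1 AP-1 match, starting at base -154 and at base -135 from the start site, and the promoters of the other 5 genes held 0. Of 32851 mouse promoters of this length, 5.2% hold the motif on either strand. The Sp1 motif GGGCGG occurred 3 times in F3, 1 time in F5 and 0 times in Procr (35.7% of all promoters hold it). The core motif of PU.1, GAGGAA, was in none of these 3 windows, but was found for F7, F13a1 and Tfpi (28.3% of all promoters). The letters TATAAA were found on the opposite strand in F3, at base 44 after the start, and on the opposite strand in 1 of the 2 Tfpi promoters (13.6% of all promoters). Both strands were searched, the motifs do not overlap each other here, and they were chosen with these results known. The matches describe the letters only.

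Subsequently, the genes of the common pathway were compared. F5 (ENSMUSG00000026579, chromosome 1, 164151838 to 164220277, plus strand, 25 exons) had 13.2, 41.4 and 34.8 CPM in ITGA5 fl/fl and 14.7, 11.3 and 11.6 CPM in Myα5KO libraries. Replicates 2 and 3 of ITGA5 fl/fl were well above the Myα5KO range and replicate 1 was inside it. The log2 fold change of F5 was -1.26 (SE 0.29, 95% interval -1.87 to -0.64, edgeR adjusted p 0.016). This call depended on the setting. It was not made by DESeq2 (adjusted p 0.0884) or limma-voom (adjusted p 0.0529), or with FPKM values. When single libraries were left out, it was lost without replicate 2 of ITGA5 fl/fl (-0.95), replicate 3 of ITGA5 fl/fl (-1.13) and replicate 3 of Myα5KO (-1.20). The adjusted p for F5 ran from 1.01e-05 to 0.384 across the alternatives, leaving out the fit without a count filter (1.15e-28).

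F10 (ENSMUSG00000031444, chromosome 8, 13037308 to 13056676, plus strand, 9 exons) had 29.6, 58.3 and 50.4 CPM in ITGA5 fl/fl and 31.2, 29.8 and 34.1 CPM in Myα5KO libraries. Again replicates 2 and 3 of ITGA5 fl/fl stood above all other libraries, and here replicate 1 was the lowest of the 6. The log2 fold change of F10 was -0.54 (95% interval -0.92 to -0.17, edgeR adjusted p 0.0679), just outside the threshold. F7 and F10 are neighbours on chromosome 8, with 1498 bases between them, and their patterns over the libraries differed by a root mean square of 0.139, the second smallest among pairs of the 8 genes, after F13a1 and Thbd (0.12). The per-length ratio of F10 to F7 was 1.11 to 1.43 in ITGA5 fl/fl libraries, compared with 1.07 to 1.13 in Myα5KO libraries.

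The low values of ITGA5 fl/fl replicate 1 did not extend to all 8 genes. Relative to the mean of the other 2 controls, replicate 1 had 34.7% of F5, 50.5% of F3, 54.5% of F10 and 65.3% of F7. In contrast, it had 105% of Procr, 101% of Tfpi, 97.1% of Thbd and 81.8% of F13a1. Over all tested genes the median was 99.8%, and 3.59% of genes were at 60% or less. Its Itga5 level (653 CPM) was the highest of the controls. This library was singled out for its low values in F5, F3, F10 and F7. Calls of these genes in a fit without it are therefore not independent of that choice. Without this library, 5 of the 8 genes were called lower by edgeR, with F10 (log2 fold change -0.78, adjusted p 0.000351) and F7 (-0.51, 0.0113) in addition to Procr (-1.14, 2.06e-06), F3 (-1.66, 0.000446) and F5 (-1.60, 1.01e-05). In that comparison 3.87% of 14903 genes were called lower and 2.29% higher, and none of the 8 genes was called higher. The adjusted p ranged up to 0.484 for F10 and up to 0.547 for F7 over their alternatives.

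**Figure D2:**
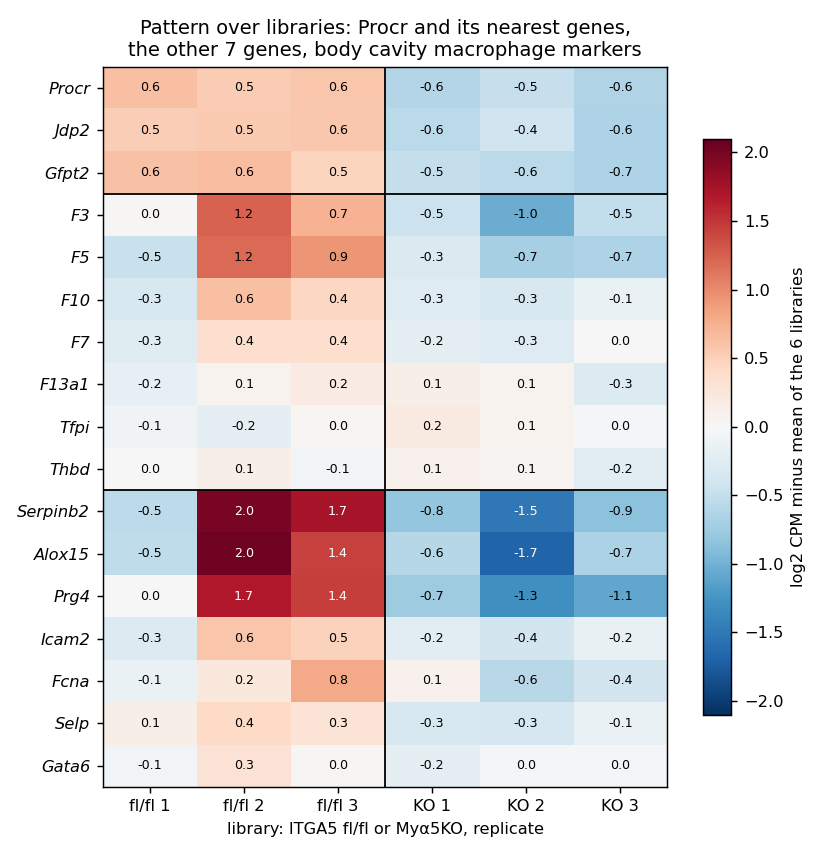
Log2 CPM of each gene minus its mean over the 6 libraries (columns: 3 ITGA5 fl/fl and 3 Myα5KO libraries). Rows are Procr and the 2 genes most like it, the other 7 coagulation genes, and 7 of the 10 markers of body cavity macrophages. Not shown are Wt1 and Cxcl13, which among the controls were highest in replicate 1, and Garnl3, which was in between there. Red is above and blue below the gene's mean. F3, F5, F10 and F7 share with Serpinb2, Alox15, Prg4 and Icam2 high values in ITGA5 fl/fl replicates 2 and 3, whereas Procr is high in all 3 controls.

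The same libraries stood out in the markers of body cavity macrophages, cells of the serous cavities that are known to express F5. This list of 10 genes summed to 181, 363 and 351 CPM in ITGA5 fl/fl and to 169, 115 and 140 CPM in Myα5KO libraries. Of the 10 genes, 5 were lower and 0 higher by edgeR (7 lower and 0 higher at an unadjusted p under 0.05), with a median log2 fold change of -0.59 against 0.015 over all tested genes. Serpinb2, Alox15 and Prg4, named here after their values were seen, had 14.3, 8.18 and 20 CPM in ITGA5 fl/fl replicate 1, and between 31.8 and 83.3 CPM in replicates 2 and 3. The list did not move as a whole, since Wt1 (5.63, 4.05 and 4.72 CPM) and Cxcl13 (19.6, 14.2 and 18.3 CPM) were highest in replicate 1 of the controls, and Garnl3 (5.9, 6.75 and 4.61 CPM) was in between. Gata6, the defining transcription factor of such cells, was at 3.35 to 4.29 CPM in ITGA5 fl/fl and 3.03 to 3.37 CPM in Myα5KO libraries and was not called (edgeR adjusted p 0.575). The part of these cells in the F3, F5, F7 and F10 values was not tested.

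The genes nearest to F3 by the measure used for Procr were Saa3 (0.139), a serum amyloid A protein, and Slc7a2 (0.193), a transporter of cationic amino acids. Those nearest to F5 were Fam20a (0.163) and Padi4 (0.235), a peptidylarginine deiminase. Saa3 had 67.6, 202 and 133 CPM in ITGA5 fl/fl and 61.4, 33.6 and 55.6 CPM in Myα5KO libraries. For F10, named outside the rule, the nearest gene was Icam2 (0.046), a member of the body cavity macrophage list, and F7 was the fifth nearest.

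F13a1 (ENSMUSG00000039109, chromosome 13, 36867178 to 37050244, minus strand, 15 exons), the cross-linking enzyme, had 412, 487 and 522 CPM in ITGA5 fl/fl and 505, 485 and 379 CPM in Myα5KO libraries. The groups overlapped over most of their range. The log2 fold change of F13a1 was -0.055 (95% interval -0.29 to 0.18, edgeR adjusted p 0.81). It was not called in any of the 16 alternatives, which gave values from -0.15 to 0.063. F13a1 is known from monocytes, resident macrophages and platelets. Of 8 monocyte markers, 3 were higher by edgeR, Ly6c2 and Ccr2 among them, and 1 was lower (6 higher and 1 lower at an unadjusted p under 0.05). The lower gene was Fn1, the most abundant, with 2450 to 4040 CPM in ITGA5 fl/fl and 1590 to 2440 CPM in Myα5KO libraries. Of 8 resident macrophage markers, 0 were higher and 1 was lower by edgeR (0 higher and 2 lower at an unadjusted p under 0.05), with sums of 1470 to 1730 and 1400 to 1630 CPM. Platelet markers, with Gp6 and Gp1bb at 0 counts in all libraries, summed to 218 to 345 and 228 to 252 CPM, nearly all of it Pf4, and 0 of the 6 that could be tested were called by edgeR (0 at an unadjusted p under 0.05). Antisense genes that overlap F13a1 had at most 11 counts in a library, and a lincRNA on the strand opposite to F5 had at most 15.

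Levels were then compared between genes per gene length, with the FPKM values of the authors. In ITGA5 fl/fl libraries the order of mean FPKM was F13a1 (70 ± 8.21), Procr (44.9 ± 1.55), Thbd (23 ± 1.43), F10 (16.8 ± 5.36), F7 (13.2 ± 2.96), F5 (3.99 ± 1.97), F3 (3.93 ± 1.56) and Tfpi (2.78 ± 0.244; SD, n = 3 each). The libraries of F10 and F7 overlapped, as did those of F5, F3 and Tfpi, so these neighbours have no firm order. In Myα5KO libraries the order was F13a1 (67.2 ± 10.5), Thbd (22.4 ± 2.72), Procr (20 ± 1.21), F10 (11.5 ± 0.711), F7 (10.4 ± 0.924), Tfpi (3.09 ± 0.268), F5 (1.67 ± 0.264) and F3 (1.49 ± 0.303; SD, n = 3 each). Here the libraries of Thbd and Procr overlapped, as did those of F10 and F7 and those of F5 and F3, and Tfpi stood above both F5 and F3 in every library.

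**Figure D3:**
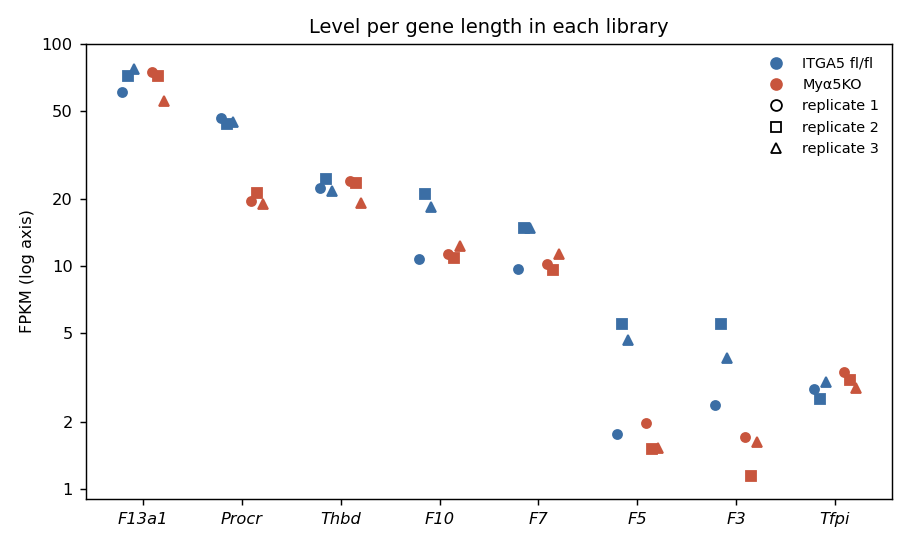
FPKM of each gene (log axis) in the 3 ITGA5 fl/fl (blue) and 3 Myα5KO (red) libraries, ordered by the mean of the ITGA5 fl/fl group. Levels run from 77.2 for F13a1 to 1.14 for F3. Procr drops to the level of Thbd in Myα5KO libraries. F5 and F3 lie below Tfpi in all Myα5KO libraries, and in ITGA5 fl/fl replicate 1 as well.

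The wider pathway was examined through 37 further coagulation genes, of which 22 had enough reads to be tested. In the edgeR test 1 of these was lower and 0 were higher (3 lower and 1 higher at an unadjusted p under 0.05), and their median log2 fold change was 0.00056. Over all 14522 genes tested, 5.19% were called lower and 3.56% higher, so 1 lower gene of 22 is near the share of all genes. At an unadjusted p under 0.05 by edgeR, 1661 of all genes were lower and 1692 higher. The 1 gene of the 22 called lower was F2r, which encodes the thrombin receptor PAR1. It had 18.8, 18.8 and 17.5 CPM in ITGA5 fl/fl and 12.9, 14 and 10.4 CPM in Myα5KO libraries, with no overlap. Its log2 fold change was -0.56 (SE 0.12, edgeR adjusted p 0.00985). In the 3 fits of FPKM values 0 of the other coagulation genes, F2r included, were called lower (3, 3 and 2 at an unadjusted p under 0.05). The other protease-activated receptors F2rl1, F2rl2 and F2rl3 had at most 20 counts in any library.

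Several soluble factors, most of them known to be made by the liver, had almost no reads. Prothrombin (F2), the fibrinogen chains (Fga, Fgb and Fgg) and protein C (Proc) had at most 3 counts in a library, and F13b, Serpina5 and Serpina10 had 0 counts in all 6, which allows up to 3 counts per library. Hepatocyte markers summed to at most 2.37 CPM. Of 3 tested genes among the other zymogens, cofactors and substrates and 6 among the other anticoagulants, 0 were called by edgeR (0 and 1 at an unadjusted p under 0.05). The anticoagulants included protein S (Pros1), at 76.8 to 84.2 CPM with a log2 fold change of 0.011 (95% interval -0.13 to 0.15), and annexin A5 (Anxa5), which covers exposed phosphatidylserine. Anxa5 had 642 to 694 CPM in ITGA5 fl/fl and 604 to 641 CPM in Myα5KO libraries, a log2 fold change of -0.085 (95% interval -0.23 to 0.06). Of the 5 genes of the vitamin K cycle and of factor V and VIII secretion, 0 were called by edgeR, with 1 higher and 1 lower at an unadjusted p under 0.05: Ggcx, the carboxylase that factors VII and X require, had a log2 fold change of 0.25 (adjusted p 0.191), and Mcfd2, a cargo receptor for factor V, had -0.16 (adjusted p 0.173). The most abundant genes of the list by mean FPKM over all libraries were Anxa5 (360), Mcfd2 (68.7) and the lipid flippase subunit Tmem30a (23.4), and 0 of the 5 genes of phosphatidylserine exposure were called by edgeR (0 at an unadjusted p under 0.05).

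**Figure D4:**
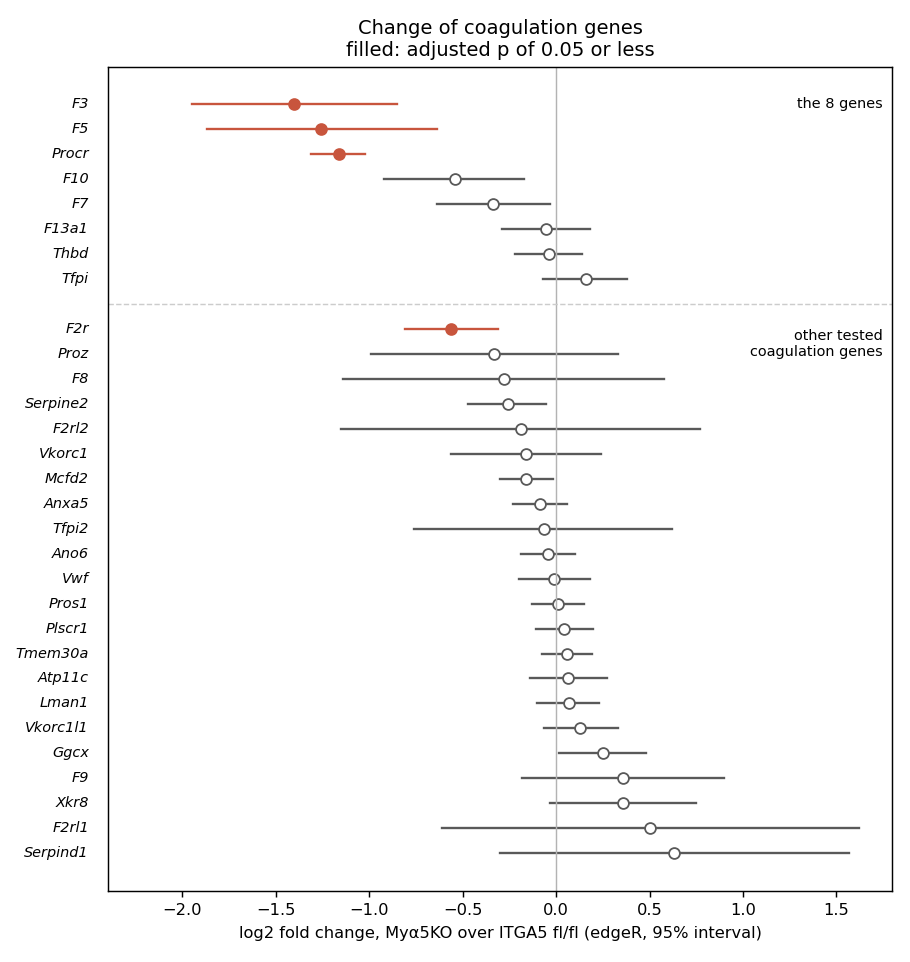
Log2 fold change of Myα5KO over ITGA5 fl/fl with its 95% interval (edgeR) for the 8 genes (above the dashed line) and the 22 other tested coagulation genes. The filled symbols have an adjusted p of 0.05 or less and belong to F3 (-1.40), F5 (-1.26), Procr (-1.16) and F2r (-0.56), all lower in Myα5KO.

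The remaining marker lists did not bear on 1 gene in particular. Granulocyte markers were higher by edgeR in 5 of 7 tested genes and lower in 0 (6 higher and 0 lower at an unadjusted p under 0.05). Their sums were 37.4 to 54.6 CPM in ITGA5 fl/fl and 72 to 193 CPM in Myα5KO libraries. Dendritic cell markers, which are relevant because Thbd marks a dendritic subset in other species, summed to 92.2 to 119 and 112 to 124 CPM. Of these 6 genes, 1 was higher and 0 lower by edgeR (3 higher and 0 lower at an unadjusted p under 0.05). Mast cell markers summed to 13.3 to 18.3 and 15.4 to 17 CPM, nearly all of it Kit, and 0 of 1 tested was called by edgeR (0 at an unadjusted p under 0.05).

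**Figure D5:**
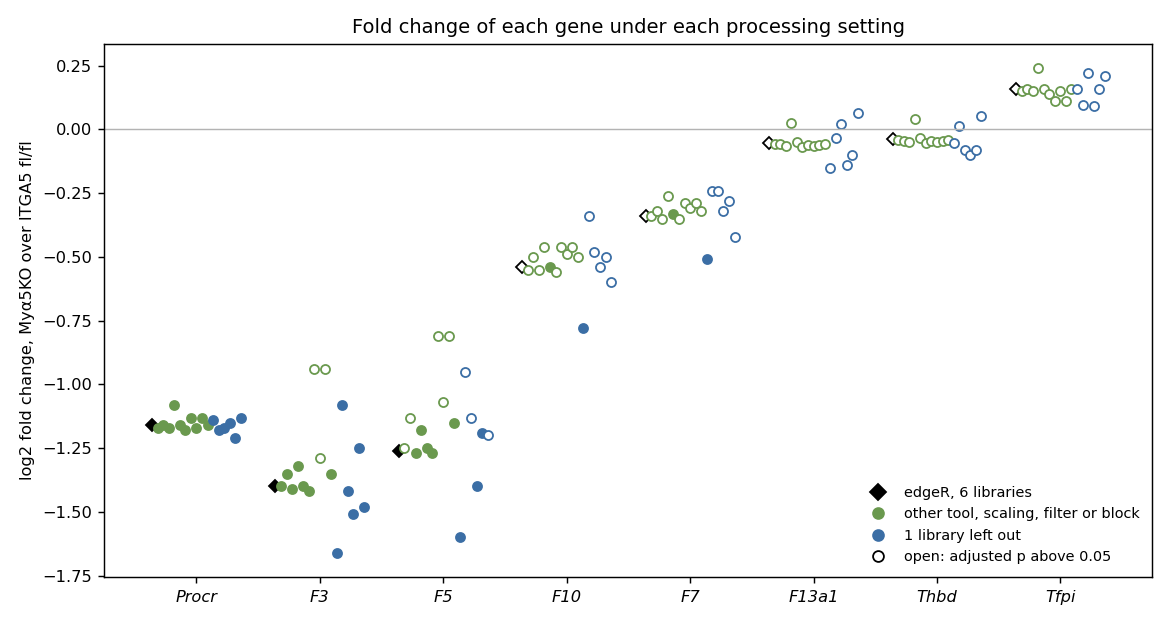
Log2 fold change of each of the 8 genes in the edgeR test of all 6 libraries (black diamonds), with another tool, scaling, filter or a replicate block (green) and with 1 library left out (blue). Filled symbols have an adjusted p of 0.05 or less. Procr is called in all 16 alternatives and stays between -1.21 and -1.08, F3 is called in 13 and F5 in 8, and F10 and F7 are each called in 2. For F10 and F7 these are the fit without a count filter and the fit without ITGA5 fl/fl replicate 1. The first ignores each gene's own spread, and the second leaves out a library singled out for its low values in these genes.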

How the data were processed

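Reads were cleaned by the authors, mapped to GRCm38.p6 (mm10) with TopHat2 2.0.9 and counted per gene with HTSeq 0.6.1, according to the methods and the submitters' processing notes. The deposited counts are whole reads per gene, without normalization. The library kit does not mark strand, and the treatment of multi-mapped reads is not given in the sources used here. The authors also deposited FPKM values; each equals the count divided by the deposited gene length and by a constant per library, which is proportional to the DESeq2 size factor computed here, so FPKM carries that scaling. Libraries were assigned to groups and replicate numbers by their titles.

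For the comparison, edgeR 4.0.16 was used on the counts (R 4.3.3; quasi-likelihood F test, TMM, default filter with minimum count 10 and total 15, no covariate), and p-values were adjusted over all genes tested by the Benjamini-Hochberg method. Alternatives were DESeq2 1.42.0, limma-voom (limma 3.58.1), limma with trend on log2(FPKM + 1) and log2(FPKM + 0.1) for genes with FPKM of at least 1 in 3 libraries and without that filter, other scalings and count filters, a replicate block, and each library left out. Libraries of a group differed by more than sampling noise (chi-square per degree of freedom at least 5.66). Scripts were tested on simulated data.

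The 8 genes, the marker and pathway lists, the motifs and the rules for named genes were chosen with earlier results of these data known. Named are the 8 genes, the called, the 3 most abundant and the receptor genes of the pathway list, at most 2 abundant markers per list, and the 2 genes nearest to each called gene; others named in the text were chosen after their values were seen. Gene coordinates are those of the deposited tables and matched GENCODE M21 for all 8 genes; exons are those of the longest coding transcript there. SEs and intervals are those of the edgeR test and include the spread between libraries. A precision read from raw counts alone would cover counting error only, and reads carry no molecular identifiers.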

Additional observations from a re-analysis of the deposited data

How the results depend on the processing

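Each of the 8 genes was refitted under 16 alternatives. Procr was called in 16 of them, F3 in 13, F5 in 8, F10 and F7 in 2 each, and F13a1, Tfpi and Thbd in 0. The calls of F10 and F7 came only from the fit without a count filter and the fit without ITGA5 fl/fl replicate 1. That library was singled out for its low values in these genes. The number of genes called lower among the 8 was 3 in the edgeR test, 1 in each fit of FPKM values (pseudocount 1, pseudocount 0.1, and no FPKM filter), and 5 without a count filter. It ranged from 2 to 5 over the 6 fits that left out a library. No gene of the 8 was called higher in any alternative. Of the other coagulation genes, 0 were called lower in the 3 fits on the FPKM scale, against 1 in edgeR (3, 3 and 2 at an unadjusted p under 0.05). Over all genes, edgeR called 517 higher and 754 lower. Library totals as the only scaling gave 1212 higher, no count filter 798 higher, log2(FPKM + 1) 150 higher and 322 lower, log2(FPKM + 0.1) 142 and 306, and log2(FPKM + 1) without a filter 2 and 8. Leaving out 1 library gave 187 to 420 higher and 429 to 671 lower. The cause of these shifts was not tested, except that without a count filter the prior degrees of freedom were infinite (9.5 with it), so each gene's own spread does not enter those p-values, and the ranges of adjusted p leave them out. Log2 fold changes of uncalled genes changed sign: F13a1 was 0.026 with library totals, 0.02 without ITGA5 fl/fl replicate 3 and 0.063 without Myα5KO replicate 3, and Thbd was 0.041 with library totals, 0.014 without ITGA5 fl/fl replicate 2 and 0.052 without Myα5KO replicate 3. With 1 library left out, F13a1 ranged from -0.15 to 0.063 and Thbd from -0.1 to 0.052.

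The replicate numbers are shared between groups, but same-numbered libraries did not deviate together (correlations over genes 0.073, -0.113 and 0.019), so the numbers were not taken as pairs. With the replicate block the calls among the 8 genes were the same 3 (Procr -1.16, F3 -1.35 and F5 -1.15, adjusted p 2.47e-05, 0.0127 and 0.0374), and over all genes 464 were called higher and 717 lower.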
